A study of Mus musculus with 16 samples.

Results

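The 10 genes described here encode proteins of the defence against peroxides, superoxide and reactive carbonyls: Prdx1, Prdx2, Prdx3, Prdx5, Prdx6, Sod1, Sod2, Gpx4, Cbr1 and Lancl1. They were taken by symbol from the 43472 gene symbols in the count tables, and all 10 passed the filter on low counts. They were selected on their function and on fold changes of these libraries: values of both mutant comparisons were known, among them the calls of Cbr1 and Lancl1 in the Prepl knockout. Their fold changes are therefore given as a description with standard errors and without p-values. The libraries came from mouse brain in 4 groups of 4: Prepl knockout mice, the WT mice kept as their controls (Prepl WT), PWS-IC deleted mice, and the WT mice kept as controls for those (PWS-IC WT). Prepl encodes a serine hydrolase lost in congenital myasthenic syndrome 22, and PWS-IC is the imprinting centre on which paternal gene activity in the Prader-Willi region depends. The study asked whether both losses affect similar pathways. The labels used here name neither age, strain, brain region nor the extent of either deletion, and do not state that each library is a separate animal, so the tests measure the spread between these libraries. The protocol text attached to the PWS-IC libraries names the Prepl comparison, and the titles were used to assign groups.

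Superoxide dismutases convert superoxide into hydrogen peroxide, Sod1 mainly in the cytosol and Sod2 in mitochondria. Peroxiredoxins then reduce peroxides through a reactive cysteine that thioredoxin or glutathione restores. Prdx1 and Prdx2 are mainly cytosolic, Prdx3 is mitochondrial, Prdx5 is found in several compartments and Prdx6 is the single-cysteine member of the family. Gpx4, a selenoprotein, reduces lipid peroxides in membranes and restrains ferroptosis. Cbr1 reduces carbonyl compounds such as lipid-derived aldehydes and some prostaglandins with NADPH, and Lancl1 is a glutathione-binding protein of the LanC-like family that is abundant in brain and protects mouse neurons from oxidative damage.

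Many antioxidant genes can be activated by the factor Nrf2 through the antioxidant response element, and its core, TGACNNNGC, was searched on both strands of RefSeq windows on GRCm38.p6 running from 250 bases before to 50 bases after each annotated start. Of the 10 genes, 9 had a window and 2 of the 9 held the core, Prdx1 and Sod1, beside 12.4% of all 32851 windows and 14% of the 27025 genes in that table. These windows are shown with those of Cbr1 and Lancl1, the genes with the widest differences in the Prepl knockout, whose windows did not contain these letters. Each is written 5′ to 3′ on the strand of the gene, and capitals mark the core, which reads on the opposite strand in both genes. It starts 133 bases before the annotated start in Prdx1 and 56 bases before it in Sod1. The window of Prdx1 is chr4:116685349-116685648, plus strand, that of Sod1 is chr16:90220512-90220811, plus strand, that of Cbr1 is chr16:93607587-93607886, plus strand, and that of Lancl1 is chr1:67038785-67039084, minus strand. The windows of Cbr1 and Sod2 lie inside the genes as the GENCODE annotation places them, so the GENCODE starts of these genes were not searched. A match describes the letters and does not show a site in use.
Prdx1: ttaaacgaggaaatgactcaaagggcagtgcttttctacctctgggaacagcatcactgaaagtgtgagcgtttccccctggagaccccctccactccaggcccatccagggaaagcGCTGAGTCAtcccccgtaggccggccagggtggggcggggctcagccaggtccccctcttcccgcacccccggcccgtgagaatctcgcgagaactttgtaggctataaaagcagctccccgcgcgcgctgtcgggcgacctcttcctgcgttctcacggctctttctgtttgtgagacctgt
Sod1: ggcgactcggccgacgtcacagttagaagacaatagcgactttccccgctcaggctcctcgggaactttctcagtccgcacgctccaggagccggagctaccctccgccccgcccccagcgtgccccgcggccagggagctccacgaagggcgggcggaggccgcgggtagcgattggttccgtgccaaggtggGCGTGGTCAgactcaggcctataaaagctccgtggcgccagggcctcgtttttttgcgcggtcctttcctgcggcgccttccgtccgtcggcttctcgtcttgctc
Cbr1: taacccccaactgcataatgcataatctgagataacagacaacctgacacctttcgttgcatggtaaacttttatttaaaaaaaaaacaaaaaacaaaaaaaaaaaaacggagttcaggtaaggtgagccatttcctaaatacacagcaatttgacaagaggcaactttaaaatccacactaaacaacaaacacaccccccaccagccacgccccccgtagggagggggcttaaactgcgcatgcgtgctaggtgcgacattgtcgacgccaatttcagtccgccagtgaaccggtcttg
Lancl1: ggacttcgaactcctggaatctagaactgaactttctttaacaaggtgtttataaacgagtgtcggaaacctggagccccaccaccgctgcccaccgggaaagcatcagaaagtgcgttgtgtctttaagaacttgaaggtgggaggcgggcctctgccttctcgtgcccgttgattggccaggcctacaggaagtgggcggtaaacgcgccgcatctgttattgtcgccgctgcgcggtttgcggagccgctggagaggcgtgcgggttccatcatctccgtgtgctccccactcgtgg
The Cbr1 window had a GC content of 44.0% and 11 CG pairs, against a median of 52.7% and 7 over all windows. GC content was 60.7% for Prdx1, 66.7% for Sod1 and 57.3% for Lancl1.

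Each library held 3477624 to 5852716 reads in genes. Values are CPM, counts scaled to the reads in genes of each library. Because the kit reads transcript ends, a count does not grow with transcript length, so levels of different genes can be compared in that respect. Reads that aligned to more than 1 place were not counted, which leaves the levels of Gpx4, Sod1, Sod2, Prdx1 and Prdx2, and so their order, less certain. Prepl had 1.17 to 2.18 CPM in Prepl knockouts and 33.6 to 36.5 CPM in Prepl WT, and Ndn, which is expressed from the paternal copy of that region, had 2.17 to 6.56 CPM in PWS-IC deleted brains and 542.7 to 566.4 CPM in PWS-IC WT, as the titles require. All 4 Prepl knockouts were male by Xist and Y-linked genes, whereas Prepl WT held 3 females and 1 male (replicate 4), and both PWS-IC groups held 2 males (replicates 1 and 2) and 2 females (replicates 3 and 4). The share of reads aligned outside genes was 17.7% to 20.1% in PWS-IC deleted brains and 11.4% to 13.7% in PWS-IC WT, so this share and the deletion cannot be told apart. It was 16.1% to 19.2% in Prepl knockouts and 15.98% to 19.6% in Prepl WT.

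The 10 genes covered a wide span of levels. Prdx2 was the most abundant, with 576.2 ± 23.9 CPM in Prepl knockouts, 572.9 ± 38.3 in Prepl WT, 651.7 ± 26.5 in PWS-IC deleted brains and 613.7 ± 37.4 in PWS-IC WT (SD, n = 4 each). Averaged over the 16 libraries it stood at percentile 98.9 of the 14392 genes tested in the fit of all libraries, and Sod1 at percentile 98.1. Prdx1 and Prdx5 followed, and their ranges overlapped in 3 of the 4 groups; in PWS-IC WT, Prdx1 was the higher at 180.1 to 185.9 CPM beside 148.7 to 161.3 CPM for Prdx5. Prdx6 came next by mean in every group, although its range overlapped that of Lancl1 in both PWS-IC groups. Prdx3 and then Gpx4 had the lowest means in every group, and the range of Prdx3 overlapped that of Cbr1 in Prepl WT. Gpx4 averaged 12.5 CPM, at percentile 38.6, a level that counts no read shared with its near-identical copy Gpx4-ps2. Between Prdx6 and Prdx3, the order of Cbr1, Lancl1 and Sod2 depended on the group: in Prepl knockouts it was Cbr1, Sod2, Lancl1 with ranges apart, and in Prepl WT the ranges of Lancl1, Sod2 and Cbr1 overlapped. In PWS-IC deleted brains Lancl1 stood above Sod2 and Cbr1, whose ranges overlapped, and in PWS-IC WT it stood above Cbr1 and Sod2, whose ranges also overlapped. Summed, the genes made up 1526 ± 66.4 CPM in Prepl knockouts, 1516 ± 88.2 in Prepl WT, 1687 ± 87.1 in PWS-IC deleted brains and 1680 ± 39.1 in PWS-IC WT, so the sum differed within each pair by less than its spread.

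**Figure D1:**
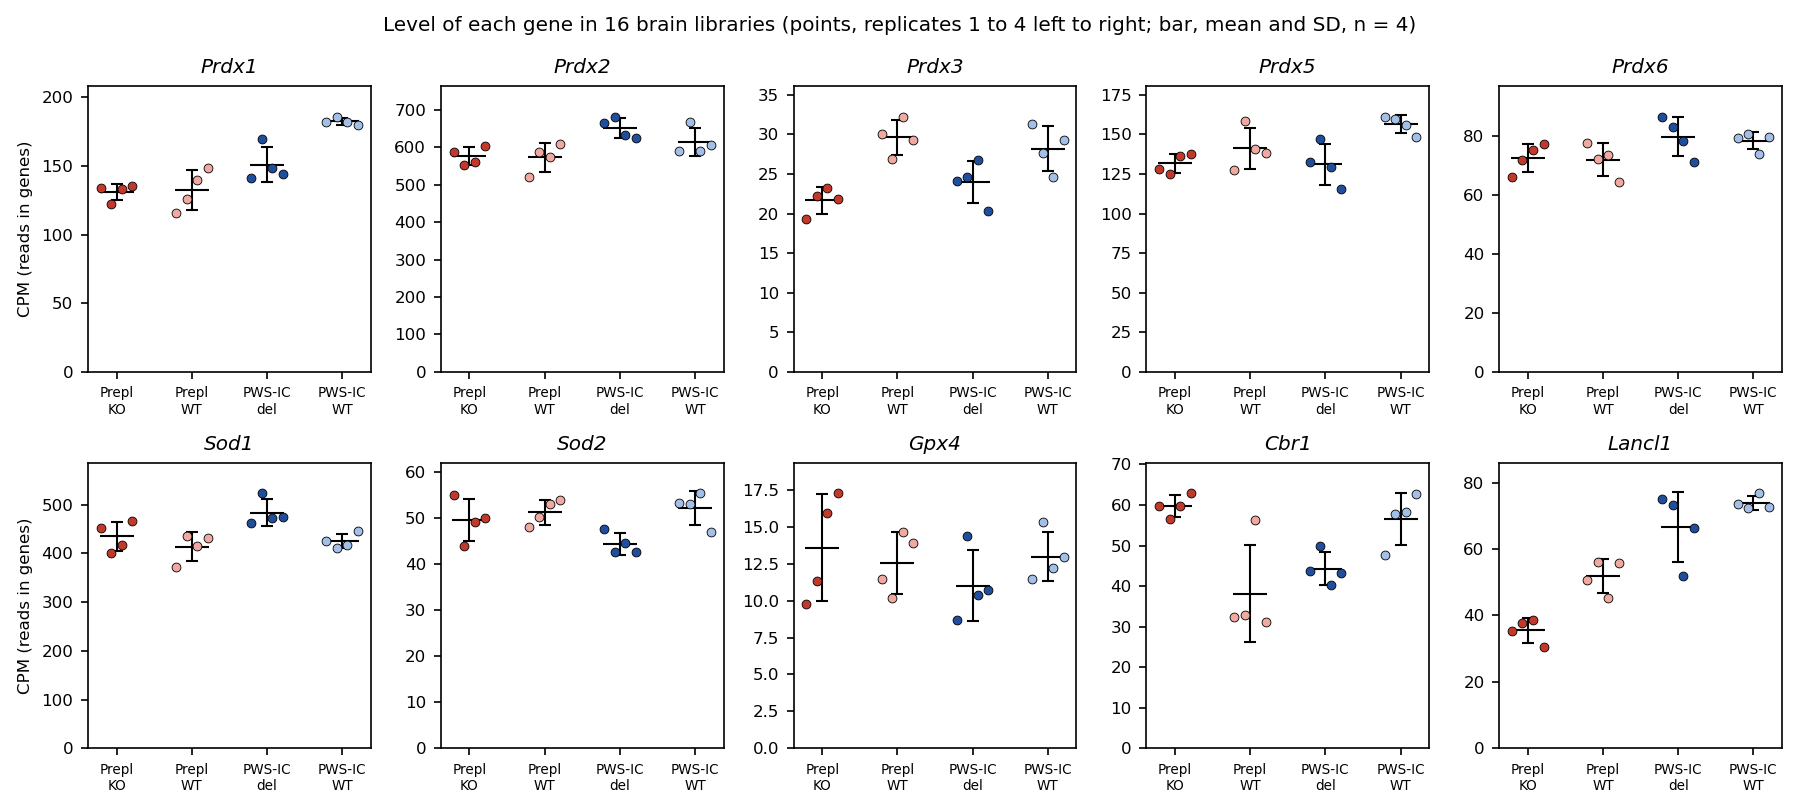
Level of each of the 10 genes in CPM (vertical axes, 1 panel a gene) in the 4 groups; points are libraries and bars are means with SD (n = 4). Cbr1 is at 56.5 to 62.9 CPM in Prepl knockouts and at 31.0 to 32.9 CPM in 3 of the 4 Prepl WT libraries, the remaining one lying at 56.2 CPM.

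In the Prepl knockout, Cbr1 was higher and Lancl1 lower than in Prepl WT, and Prdx3 was lower without passing the test, whereas the other 7 genes had log2 fold changes of -0.07 to 0.15. With edgeR's quasi-likelihood test and a Benjamini-Hochberg threshold of 0.05 over all genes, 2 of the 10 genes were called, Cbr1 higher and Lancl1 lower, beside 0.262% of the 13722 genes tested (0.189% higher and 0.0729% lower). DESeq2 and limma voom each called 2 of the 10, beside 0.344% of the genes DESeq2 gave an adjusted p and 0.299% for limma voom. Because the genes were chosen with these calls known, nothing is read from those counts. The libraries of the 2 groups did not overlap for 3 of the 10 genes, beside 5.69% of all genes tested: Cbr1 lay above (1.6% of all genes) and Lancl1 and Prdx3 below (4.09%). The median log2 fold change of the 10 was 0.03, beside 0.00 over all genes, with 6 genes above 0 and 4 below. In the brain as a whole, fewer cells of a type and less RNA per cell cannot be told apart.

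Cbr1 (chromosome 16, 93605853 to 93610505, plus strand, GRCm38) had 59.8, 56.5, 59.8 and 62.9 CPM in Prepl knockouts, against 32.5, 32.9, 56.2 and 31.0 CPM in Prepl WT. The knockouts lay close together, and 3 of the WT libraries lay far below them, while WT replicate 3, a female, fell just short of the lowest knockout. The mean was 59.8 ± 2.61 CPM in Prepl knockouts and 38.2 ± 12.1 CPM in Prepl WT (SD, n = 4 each), a log2 fold change of 0.67 ± 0.136 (SE), or 1.60-fold. Without WT replicate 3 the log2 fold change was 0.93 ± 0.104. Sex differs between these groups: the single WT male had 31.0 CPM, the lowest value of its group, and the 3 WT females had 32.5 to 56.2 CPM. With sex as a term in the 8 libraries the log2 fold change was 0.97 ± 0.221 and the call was lost. No knockout was female, so that estimate sets the 4 knockouts against the single WT male and rests on that 1 library. With a sex term in 1 fit of all 16 libraries the log2 fold change was 0.74 ± 0.158 and Cbr1 was called. The call was also lost when WT replicate 2 or 4 or any 1 of the 4 knockouts was left out, with log2 fold changes of 0.59 to 0.69.

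Lancl1 (chromosome 1, 67000517 to 67038872, minus strand) had 35.4, 37.7, 38.7 and 30.4 CPM in Prepl knockouts, against 50.6, 56.2, 45.3 and 55.8 CPM in Prepl WT. Every knockout lay below every WT library, the nearest pair being 38.7 and 45.3 CPM. The mean was 35.6 ± 3.71 CPM in Prepl knockouts and 52.0 ± 5.10 CPM in Prepl WT, a log2 fold change of -0.51 ± 0.106. The WT male had 55.8 CPM and the WT females 45.3 to 56.2 CPM. The fold change stayed between -0.64 and -0.44 over 17 other settings. The call held in 8 of them and was lost in others, among them a sex term in the 8 libraries, the single fit of all 16 libraries, and any fit without WT replicate 2 or 4 or without 1 of the 4 knockouts. As for Cbr1, the sex term in the 8 libraries sets the 4 knockouts against the single WT male.

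**Figure D2:**
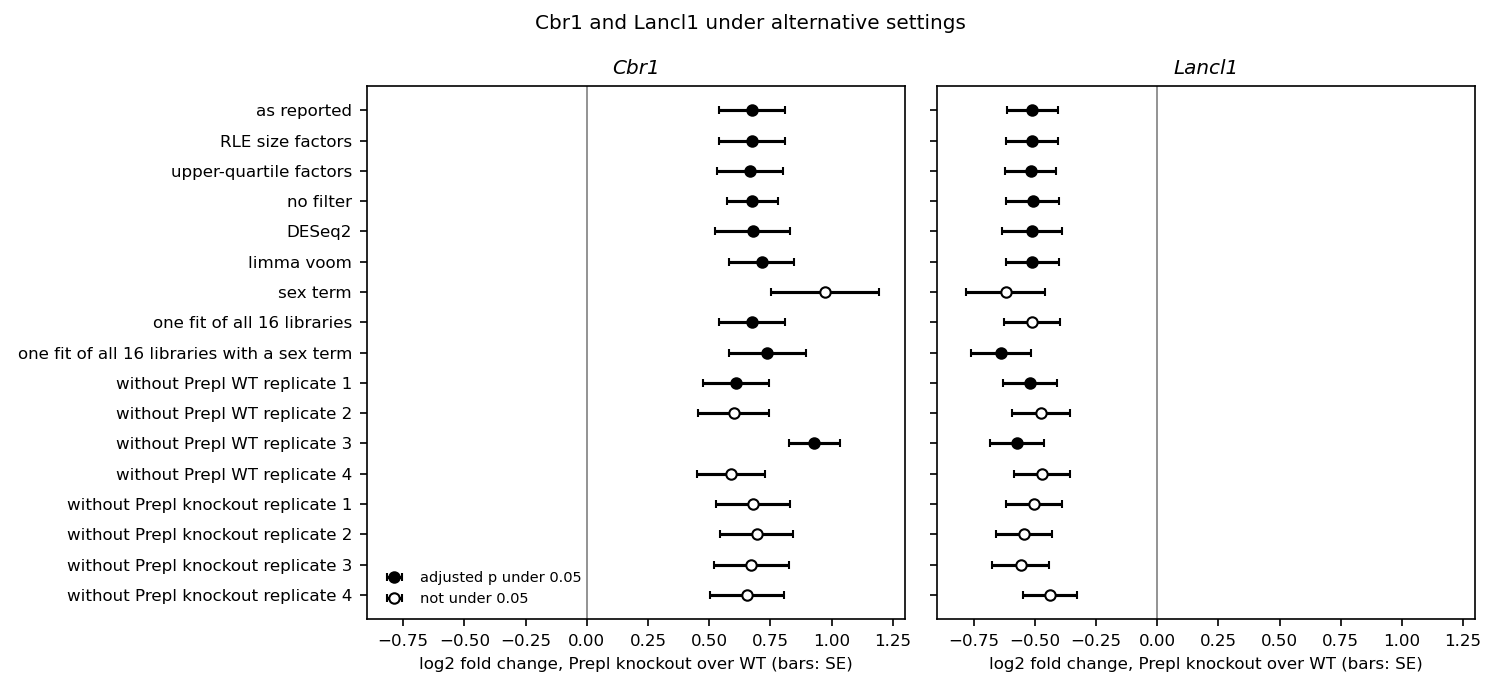
Log2 fold change with its standard error (horizontal axis) of Cbr1 and Lancl1 in Prepl knockout against Prepl WT under processing settings (rows), with filled points where the gene was called. The fit with the replicate number as a block is not drawn. In it Cbr1 stood at 0.71 and was called, and Lancl1 stood at -0.51 and was not. Cbr1 stays above 0, between 0.59 and 0.97, and Lancl1 stays below 0, between -0.64 and -0.44, while the call comes and goes.

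Among the peroxiredoxins, Prdx3 (chromosome 19, 60864051 to 60874556, minus strand) had 19.3, 22.2, 23.3 and 21.8 CPM in Prepl knockouts, against 30.1, 26.9, 32.2 and 29.3 CPM in Prepl WT. All knockouts lay below all WT libraries, yet the log2 fold change of -0.41 ± 0.120 was not called, nor in any of the 17 other settings. It rests on 448 reads in the knockouts and 633 reads in WT, summed over 4 libraries each. Its share of the reads of the 5 peroxiredoxins was 2.32% ± 0.214 in Prepl knockouts and 3.13% ± 0.326 in Prepl WT (SD, n = 4). The other 4 peroxiredoxins overlapped between the groups. Their log2 fold changes were 0.02 ± 0.0787 for Prdx1, 0.04 ± 0.0657 for Prdx2, -0.07 ± 0.0741 for Prdx5 and 0.05 ± 0.0847 for Prdx6. The sign of Prdx1, Prdx2 and Prdx6 changed in 4, 2 and 1 of the 17 other settings.

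The superoxide dismutases and Gpx4 showed no separation between Prepl knockouts and Prepl WT. Sod1 had 401.4 to 466.2 CPM in Prepl knockouts and 372.2 to 435.9 CPM in Prepl WT, a log2 fold change of 0.11 ± 0.0687. Sod2 had 43.8 to 54.9 CPM in Prepl knockouts and 48.0 to 53.9 CPM in Prepl WT, a log2 fold change of -0.02 ± 0.0929. Sod2 changed sign in 2 of the 17 other settings. Gpx4 was the least precise, with 9.74 to 17.3 CPM in Prepl knockouts and 10.2 to 14.7 CPM in Prepl WT and a log2 fold change of 0.15 ± 0.189, whose sign changed with a sex term.

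In the PWS-IC deletion, Prdx1 and Prdx5 were lower and Sod1 higher than in every PWS-IC WT library, by modest amounts, and 7 of the 10 genes had a log2 fold change below 0. None of the 10 was called by edgeR, beside 4.52% of the 13636 genes tested (2.96% higher and 1.55% lower). At an unadjusted p under 0.05 there were 5, beside 18.2% of all genes, DESeq2 called 1, beside 4.25% of the genes it gave an adjusted p, and limma voom called 0, beside 4.5%. Nothing is read from these counts, since the genes were chosen with the values known. Groups did not overlap for 3 of the 10 genes, beside 11.8% of all genes: Sod1 lay above (6.7% of all genes) and Prdx1 and Prdx5 below (5.06%). The median log2 fold change of the 10 was -0.23, beside -0.01 over all genes, with a range of -0.34 to 0.19.

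Prdx1 (chromosome 4, 116685544 to 116700822, plus strand) had 141.0, 169.4, 148.4 and 144.4 CPM in PWS-IC deleted brains, against 181.6, 185.9, 181.8 and 180.1 CPM in PWS-IC WT. The WT libraries lay within a narrow band and all deleted libraries lay below it, a log2 fold change of -0.27 ± 0.0849. Prdx1 was called in 6 of 17 other settings, among them DESeq2, a sex term, both fits of all 16 libraries, and the fit without deleted replicate 2. Prdx5 (chromosome 19, 6906697 to 6910106, minus strand) had 132.3, 147.3, 129.7 and 115.6 CPM in PWS-IC deleted brains, against 161.3, 160.0, 156.2 and 148.7 CPM in PWS-IC WT. The highest deleted library stood just under the lowest WT library, and the log2 fold change was -0.25 ± 0.0908. It was called in the 2 fits with a sex term.

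Sod1 (chromosome 16, 90220754 to 90226329, plus strand) moved the other way, with 463.2, 523.4, 473.0 and 474.8 CPM in PWS-IC deleted brains, against 425.4, 411.7, 417.3 and 445.5 CPM in PWS-IC WT. All deleted libraries lay above all WT libraries, and the log2 fold change was 0.19 ± 0.0768. Prdx2 (chromosome 8, 84969587 to 84974834, plus strand) overlapped, at 626.2 to 682.1 CPM in PWS-IC deleted brains and 589.5 to 668.6 CPM in PWS-IC WT, with a log2 fold change of 0.09 ± 0.0789. Sod2 (chromosome 17, 13006846 to 13040063, plus strand) had 42.6 to 47.6 CPM in PWS-IC deleted brains and 46.8 to 55.3 CPM in PWS-IC WT, a log2 fold change of -0.23 ± 0.106. Prdx3 had a log2 fold change of -0.24 ± 0.138, Prdx6 of 0.03 ± 0.0955 and Gpx4 of -0.23 ± 0.197, all with overlapping groups, and the sign of Prdx6 changed in 2 of 17 other settings.

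The make-up of the peroxiredoxin reads is given as a description, with no test. Prdx2 took 62.8% ± 1.07 of the reads of the 5 peroxiredoxins in PWS-IC deleted brains and 57.9% ± 1.27 in PWS-IC WT (SD, n = 4), with ranges of 61.7% to 64.0% and 56.5% to 59.6%. Prdx1 took 14.5% ± 0.788 in PWS-IC deleted brains and 17.2% ± 0.488 in PWS-IC WT, and Prdx5 took 12.6% ± 0.614 in PWS-IC deleted brains and 14.8% ± 0.641 in PWS-IC WT. For Prdx1, Prdx2 and Prdx5 the ranges of shares did not overlap between deleted brains and WT. In the Prepl pair, Prdx2 took 61.7% ± 1.03 in Prepl knockouts and 60.4% ± 0.841 in Prepl WT, and these ranges overlapped. Shares within a library are tied to each other, since they sum to the whole.

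**Figure D3:**
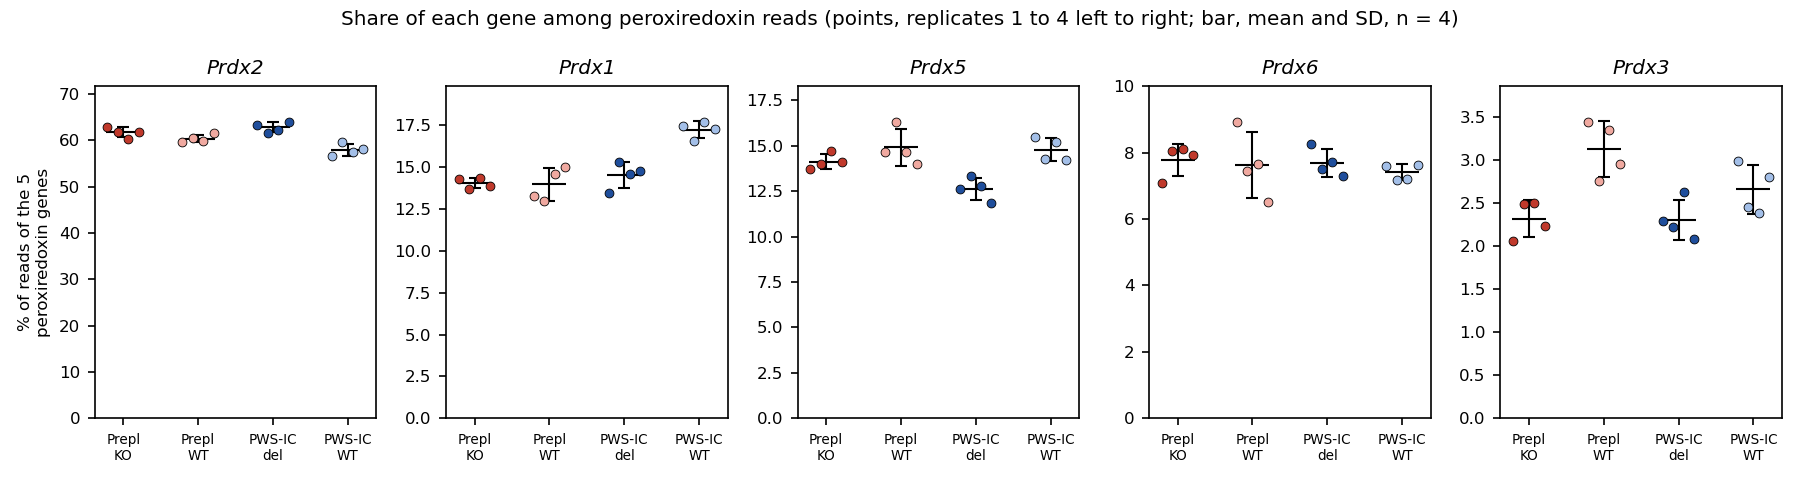
Share of each peroxiredoxin in the reads of the 5 peroxiredoxins, in percent (vertical axes, 1 panel a gene), by group; points are libraries and bars are means with SD (n = 4). In PWS-IC deleted brains Prdx2 lies at 61.7% to 64.0%, above the 56.5% to 59.6% of PWS-IC WT, and Prdx1 and Prdx5 lie below their WT libraries.

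Cbr1 had 43.8, 49.9, 40.3 and 43.1 CPM in PWS-IC deleted brains, against 47.7, 57.7, 58.2 and 62.8 CPM in PWS-IC WT. Deleted replicate 2 lay above WT replicate 1, so the groups overlapped, and the log2 fold change was -0.34 ± 0.114. It was called in 1 of 17 other settings, the sex term in the 8 libraries (-0.34 ± 0.108). Lancl1 had 75.1, 73.2, 51.8 and 66.4 CPM in PWS-IC deleted brains, against 73.5, 72.3, 76.8 and 72.7 CPM in PWS-IC WT. Its 2 lowest deleted libraries were the females, at 51.8 and 66.4 CPM, and the log2 fold change was -0.14 ± 0.111.

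The difference between the mutant effects, taken as the PWS-IC effect minus the Prepl effect in 1 fit of 16 libraries, was called for 1 of the 10 genes, beside 0.778% of the 14392 genes tested (0.292% higher and 0.486% lower). That gene was Cbr1, with a difference of -1.02 ± 0.193 on the log2 scale, and it was called in all 23 other settings, with values of -1.27 to -0.93. Lancl1 had a difference of 0.38 ± 0.157, which was not called. The 2 comparisons share no library. Because the genes were chosen with the fold changes of both comparisons known, nothing is read from the call of Cbr1, and its difference is a description.

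**Figure D4:**
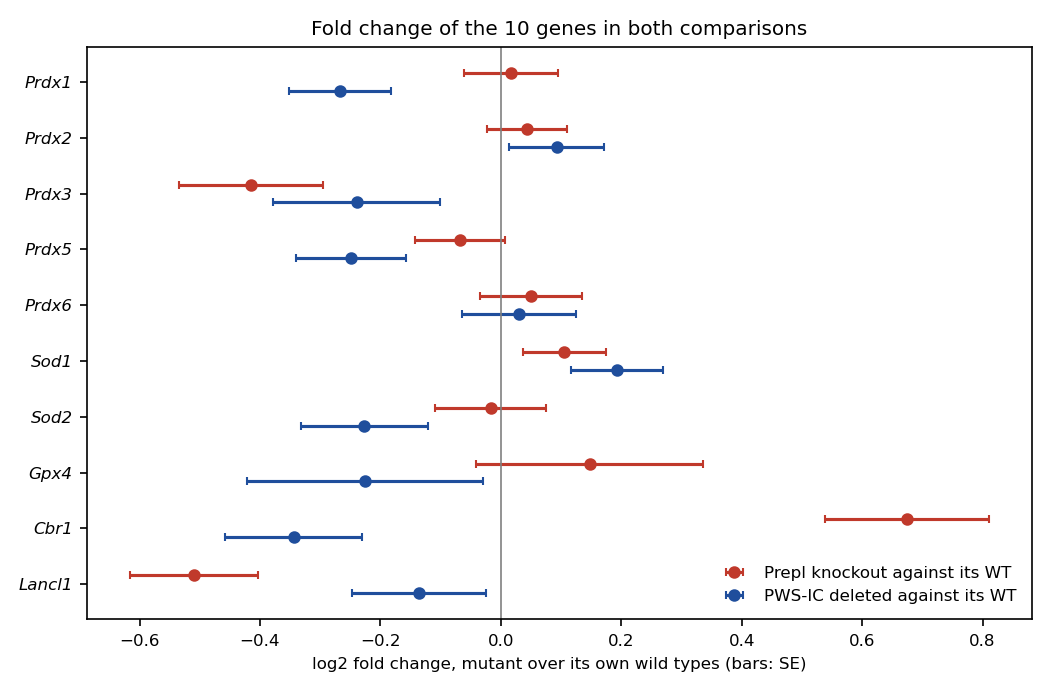
Log2 fold change with its standard error of the 10 genes in Prepl knockout against Prepl WT and in PWS-IC deleted against PWS-IC WT (horizontal axis; rows are genes, points the estimates, bars the standard errors). Cbr1 stands at 0.67 in the Prepl comparison and at -0.34 in the PWS-IC comparison, on opposite sides of 0.

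The 2 sets of WT brains differed for many genes, some of these 10 among them. This bears on how far a level in one mutant can be set against the other, and nothing particular to the 10 is read from it. In Prepl WT against PWS-IC WT, 3 of the 10 genes were called, all lower, beside 24.4% of 14392 genes (12.3% lower), and libraries did not overlap for 2 of the 10, Prdx1 and Lancl1, both lower, beside 24.3% of all genes (9.7% lower). Cbr1 had a log2 difference of -0.61 ± 0.136, Lancl1 of -0.55 ± 0.108 and Prdx1 of -0.51 ± 0.0833, and these calls held in 14 of 14 other settings. Reads outside genes made up 15.98% to 19.6% in Prepl WT and 11.4% to 13.7% in PWS-IC WT. That share and the WT group cannot be told apart. The mean of Cbr1 was 38.2 CPM in Prepl WT and 56.6 CPM in PWS-IC WT, so the Prepl knockouts, at 56.5 to 62.9 CPM, lay within the range of the PWS-IC WT libraries, at 47.7 to 62.8 CPM, or just above it. Lancl1 averaged 52.0 CPM in Prepl WT and 73.8 CPM in PWS-IC WT, both above the 35.6 CPM of the Prepl knockouts. The knockouts are set beside the other WT group here as a description.

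By Pearson correlation of log2(CPM + 0.5) over the 16 libraries, among 13237 genes tested in both comparisons, the genes most like Cbr1 were Zfp53 (0.77), Ccdc101 (0.75) and 1700124L16Rik (0.74). Those most like Lancl1 were Chmp4b (0.93), Sdccag3 (0.92) and the globin gene Hba-a2 (0.90). The 16 points share the 4 groups, so a difference between groups raises each value. Sdccag3 averaged 46.6 CPM in Prepl knockouts, 57.6 in Prepl WT, 89.3 in PWS-IC deleted brains and 94.6 in PWS-IC WT, the same order of groups as Lancl1. Within 500000 bases of Cbr1, 4 other genes were tested in the Prepl comparison, with log2 fold changes of -0.40 to -0.01. Within the same distance of Lancl1 there were 4, with log2 fold changes of -0.04 to 0.08. None of these neighbours was called by edgeR, DESeq2 or limma voom, and 0 had an unadjusted p under 0.05. This distance was chosen after the values of Cbr1 and Lancl1 were known.

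Beyond the 10 genes, 6 lists of related genes held 99 others, of which 95 were tested in each comparison, and these carry p-values adjusted over all genes. The lists were also drawn up with earlier results of these data known, so their counts and p-values are a description and not independent support. In the Prepl comparison 1 of the 95 rose, 1.05% of them beside 0.262% of all genes tested, and 0 fell. At an unadjusted p under 0.05 there were 5, beside 9.43% of all genes. DESeq2 called 0, beside 0.344% of the genes it gave an adjusted p, and limma voom called 1, beside 0.299%. The median log2 fold change of the 95 was -0.01, beside 0.00 over all genes. The gene that rose was Txnip, which encodes the thioredoxin-interacting protein that binds thioredoxin and limits glucose uptake. It had 89.98, 84.7, 91.7 and 155.1 CPM in Prepl knockouts, against 74.5, 51.3, 39.3 and 51.8 CPM in Prepl WT. Its log2 fold change was 1.00 ± 0.161 (edgeR quasi-likelihood adjusted p = 0.00376). The call was kept when each library was left out and lost with DESeq2, with a sex term and in both fits of all 16 libraries. Txnip also stood higher in males than in females of both PWS-IC groups: deleted males had 176.1 and 127.7 CPM and deleted females 50.9 and 93.2 CPM, and WT males had 92.3 and 158.1 CPM and WT females 73.3 and 67.8 CPM. The single male among Prepl WT had 51.8 CPM, below the 4 male knockouts.

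The other 14 tested genes of the thioredoxin list, and all tested genes of the remaining 5 lists, were not called in the Prepl comparison by edgeR, DESeq2 or limma voom. The gene with the smallest p in each of these 5 lists still missed the threshold. Aldh7a1, an aldehyde dehydrogenase of lysine breakdown, averaged 13.4 ± 2.33 CPM in Prepl knockouts and 19.4 ± 1.35 CPM in Prepl WT, with a log2 fold change of -0.50 ± 0.150 (edgeR adjusted p = 0.228). Hmox1, the haem oxygenase that Nrf2 can induce, averaged 3.36 ± 1.70 CPM in Prepl knockouts and 1.75 ± 0.397 CPM in Prepl WT (edgeR adjusted p = 0.399). The extracellular superoxide dismutase Sod3 averaged 2.24 ± 1.04 CPM in Prepl knockouts and 3.82 ± 0.783 CPM in Prepl WT (edgeR adjusted p = 0.489). Both rest on few reads, summed over each group. Hmox1 had 70 reads in Prepl knockouts and 37 in Prepl WT, and Sod3 had 46 and 83. The selenium carrier Sepp1 had a log2 fold change of 0.27 ± 0.103 (edgeR adjusted p = 0.392), and the microsomal glutathione transferase Mgst3 one of -0.17 ± 0.107 (edgeR adjusted p = 0.663).

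In the PWS-IC deletion 2 of the 95 rose and 5 fell, 7.37% of them beside 4.52% of all genes tested. At an unadjusted p under 0.05 there were 17, beside 18.2% of all genes. DESeq2 and limma voom each called 7, beside 4.25% of the genes DESeq2 gave an adjusted p and 4.5% for limma voom. The median log2 fold change of the 95 was -0.07, beside -0.01 over all genes. The glutathione list held 3 of the genes that fell and none that rose among its 20 tested members, with a median of -0.18. Gstm5, a glutathione transferase, had 73.1, 88.5, 76.2 and 75.2 CPM in PWS-IC deleted brains, against 103.4, 133.1, 104.7 and 115.0 CPM in PWS-IC WT. Gsr, the glutathione reductase that regenerates glutathione with NADPH, had 31.5, 26.7, 28.8 and 25.2 CPM in PWS-IC deleted brains, against 38.6, 43.5, 36.9 and 38.1 CPM in PWS-IC WT. Gsto1, an omega-class transferase, had 33.6 to 49.5 CPM in PWS-IC deleted brains and 52.3 to 62.3 CPM in PWS-IC WT. For all 3 genes the groups did not overlap. The log2 fold changes were -0.54 ± 0.104 for Gstm5 (edgeR adjusted p = 0.00460), -0.49 ± 0.124 for Gsr (edgeR adjusted p = 0.0283) and -0.46 ± 0.127 for Gsto1 (edgeR adjusted p = 0.0404).

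The lists named next with a called gene had 4.76% to 6.67% of their tested genes called, beside 4.52% of all genes tested. Of the 21 tested carbonyl and aldehyde genes, 1 fell. Glod4, a protein of the glyoxalase domain family, had 30.3, 25.8, 25.9 and 26.7 CPM in PWS-IC deleted brains, against 37.6, 38.0, 46.2 and 41.3 CPM in PWS-IC WT. Its log2 fold change was -0.58 ± 0.120 (edgeR adjusted p = 0.00820). Of the 15 tested genes of the thioredoxin list, 1 rose, Glrx5, a mitochondrial glutaredoxin of iron-sulfur cluster assembly, with 156.1 to 186.0 CPM in PWS-IC deleted brains and 134.3 to 145.4 CPM in PWS-IC WT (log2 fold change 0.34 ± 0.0871, edgeR adjusted p = 0.0272). Of the 15 tested Nrf2 regulators and targets, 1 rose, Tkt, the transketolase of the pentose phosphate pathway, with 119.0 to 155.4 CPM in PWS-IC deleted brains and 98.8 to 111.1 CPM in PWS-IC WT (log2 fold change 0.39 ± 0.0962, edgeR adjusted p = 0.0222). Of the 16 tested selenoprotein genes, 1 fell, Selk, which encodes a selenoprotein of the endoplasmic reticulum, with 146.7 to 159.0 CPM in PWS-IC deleted brains and 183.2 to 222.6 CPM in PWS-IC WT (log2 fold change -0.37 ± 0.0872, edgeR adjusted p = 0.0175). Of the 8 tested peroxide and superoxide enzymes outside the 10 genes, edgeR, DESeq2 and limma voom called 0. At an unadjusted p under 0.05 there were 2, beside 18.2% of all genes. Gpx1, the cytosolic glutathione peroxidase, had a log2 fold change of -0.26 ± 0.111 (edgeR adjusted p = 0.220). Gstm5 and Glod4 stayed called whichever library was left out. The call was lost in 6 of 8 such fits for Glrx5, 6 for Gsr, 7 for Gsto1, 4 for Tkt and 2 for Selk.

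**Figure D5:**
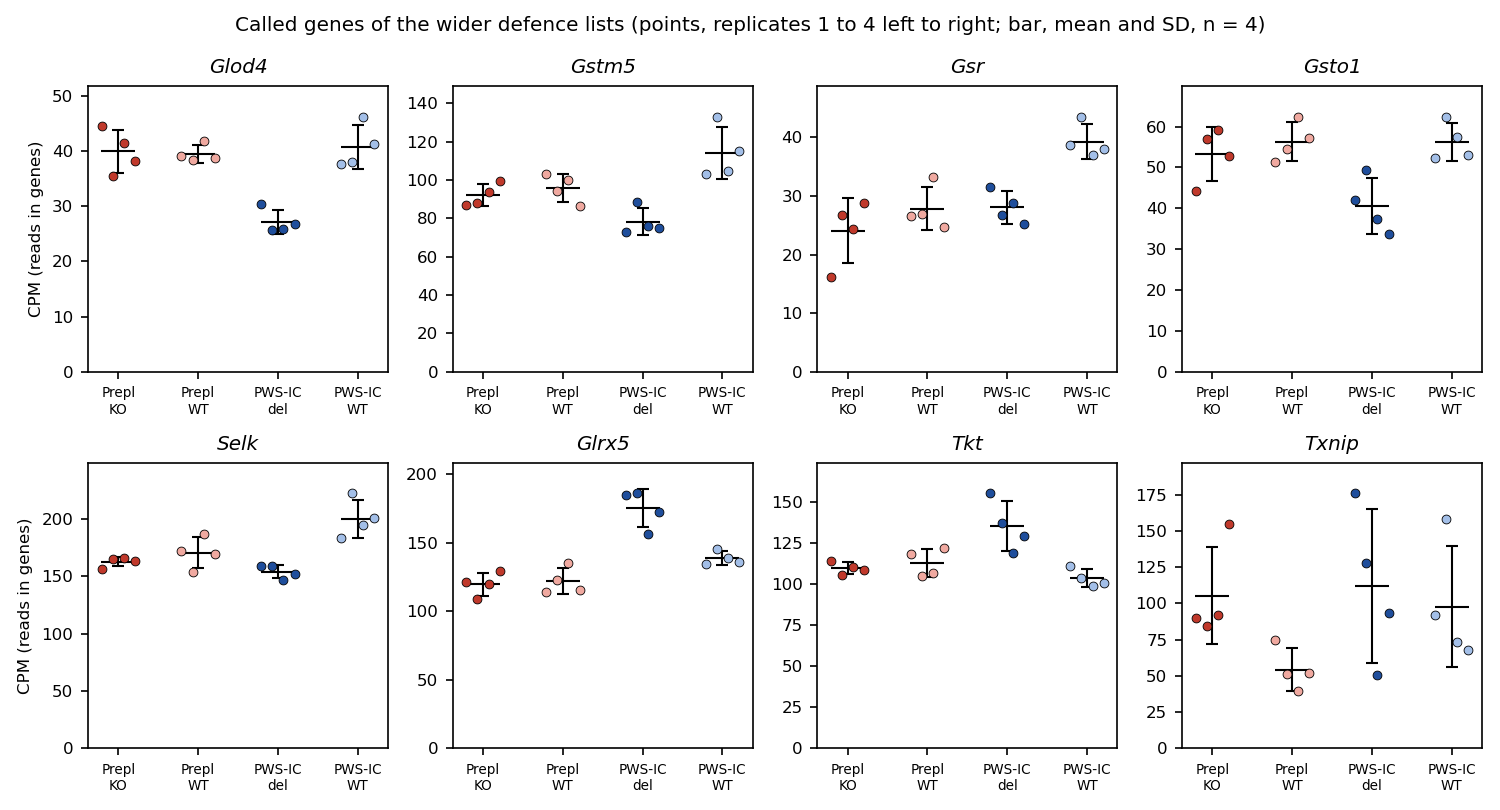
Level in CPM (vertical axes, 1 panel a gene) of the 8 genes of the wider lists that were called in either comparison, by group; points are libraries and bars are means with SD (n = 4). Glod4, Gstm5, Gsr, Gsto1 and Selk lie lower in all PWS-IC deleted libraries than in all PWS-IC WT libraries and Glrx5 and Tkt higher, while Txnip is at 84.7 to 155.1 CPM in Prepl knockouts and at 39.3 to 74.5 CPM in Prepl WT.

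For the difference between the mutant effects, 1 of the 95 was called, 1.05% of them beside 0.778% of all genes tested. It was Glod4, at -0.62 ± 0.152 (edgeR adjusted p = 0.0417), a call that held in 9 of 23 other settings. Gstm5 had a difference of -0.51 ± 0.134 (edgeR adjusted p = 0.0669), Tkt of 0.40 ± 0.124 (edgeR adjusted p = 0.144), Glrx5 of 0.34 ± 0.117 (edgeR adjusted p = 0.203) Sepp1 of -0.53 ± 0.177 (edgeR adjusted p = 0.190) and Gpx3 of -0.38 ± 0.251 (edgeR adjusted p = 0.600). At an unadjusted p under 0.05 there were 11 of the 95, beside 11.7% of all genes.

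Markers of the cells that a brain sample can hold were read beside these genes. The marker lists were also chosen with earlier results of these data known. All 6 neuron markers were detected in every group. In the Prepl comparison the summed neuron markers were 3696 to 3989 CPM in Prepl knockouts and 4048 to 4173 CPM in Prepl WT, so these ranges did not overlap. However, 0 of the 6 were called by edgeR, DESeq2 or limma voom, and 1 had an unadjusted p under 0.05, beside 9.43% of all genes. Summed astrocyte markers were 795.2 to 941.7 CPM in Prepl knockouts and 837.1 to 1138 CPM in Prepl WT, and summed red cell markers 628.6 to 833.5 CPM in Prepl knockouts and 660.7 to 1147 CPM in Prepl WT. Of all 8 marker lists, 1 gene was called by edgeR in the Prepl comparison, Hba-a2, lower, beside 0.0729% of all genes called lower. Neither DESeq2 nor limma voom called Hba-a2. It had 1.59 to 2.38 CPM in Prepl knockouts; 2 of the Prepl WT libraries had 48.7 and 50.9 CPM and the other 2 had 1.38 and 2.43 CPM. The part of these markers in the values of Cbr1, Lancl1 and Prdx3 was not tested.

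In the PWS-IC comparison more markers moved. The counts of fallen markers stand beside 1.55% of all genes tested that edgeR called lower. Summed meningeal fibroblast markers were 293.4 to 315.8 CPM in PWS-IC deleted brains and 380.0 to 634.5 CPM in PWS-IC WT, with 5 of 6 fallen: Col1a1 (log2 fold change -0.53), Col1a2 (-0.74), Col3a1 (-0.80), Dcn (-0.73) and Igf2 (-0.86). Summed red cell markers were 1205 to 1630 CPM in PWS-IC deleted brains and 1798 to 3972 CPM in PWS-IC WT, with 4 of 6 fallen: the globin genes Hba-a1 (-1.52), Hba-a2 (-1.63), Hbb-bs (-0.97) and Hbb-bt (-0.94). Summed choroid plexus markers were 389.6 to 1698 CPM in PWS-IC deleted brains and 1390 to 2145 CPM in PWS-IC WT, with 2 of 5 tested fallen, Ttr (-1.12) and Enpp2 (-0.57). Of 4 tested oligodendrocyte markers 1 fell, Cnp (-0.56), and of 5 tested microglial markers 1 fell, Csf1r (-0.63). The sums of these 2 lists overlapped between the groups. Oligodendrocyte markers summed to 83.5 to 95.1 CPM in PWS-IC deleted brains and 93.9 to 102.3 CPM in PWS-IC WT. Microglial markers summed to 57.0 to 85.6 CPM in PWS-IC deleted brains and 73.6 to 98.3 CPM in PWS-IC WT. Adjusted p-values of these 13 markers in edgeR were 7.17e-05 to 0.0424. The call was lost in 5 of 8 fits without 1 library for Cnp, Col1a1 and Enpp2, and in 6 of 8 for Csf1r and Ttr. Csf1r also lost it with limma voom and Ttr with DESeq2. Summed astrocyte markers were 824.8 to 884.6 CPM in PWS-IC deleted brains and 903.0 to 972.5 CPM in PWS-IC WT, so these ranges did not overlap, although none of the endothelial, astrocyte or neuron markers was called by edgeR. At an unadjusted p under 0.05 there were 1, 2 and 2 of these, beside 18.2% of all genes. DESeq2 and limma voom each called 0, 0 and 1 of them. The part of these markers and of the reads outside genes in the values of Prdx1, Prdx5, Sod1 and the wider genes was not tested.

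Near-identical copies and overlapping genes limit some values. A transcript of Gpx4-ps2 matched Gpx4 at 99.7% over 762 bases, and Gpx4-ps2 is not a symbol of the count tables. Sod2 matched an Rps6ka2 transcript at 98.3% over 3110 bases. Sod1 matched the pseudogene Gm8566 at 97.8% over 465 bases, and that pseudogene was given 562 reads over the 16 libraries. Prdx1 matched Gm21399 at 98.3% over 597 bases (65 reads), Prdx2 matched Tdpx-ps1 at 96.3% over 597 bases (143 reads), and Cbr1 matched Gm5678 at 90.6% over 940 bases (47 reads). Reads that aligned to more than 1 place, 25.2% to 30.9% of the tabled reads of a library, were not counted to genes. How many of these reads belong to Gpx4, Sod1, Sod2, Prdx1 and Prdx2 is not known, so levels of these genes are uncertain. On the opposite strand, Prdx5 overlaps Trmt112 by 409 bases, Sod1 overlaps Scaf4 by 650 bases, and Prdx2 overlaps Junb by 351 bases and Rnaseh2a by 181 bases. No source used here gives the strand setting of the counting, so reads of such pairs cannot be told apart.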

How the data were processed

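The authors deposited raw counts of reads for 43472 gene symbols per library. Libraries were Lexogen QuantSeq from total RNA, per the labels' protocols. HISAT2, HTSeq and mm10 are named, per the submitters' processing notes, without versions. The 5 totals that name no gene, 53.6% to 61.9% of the tabled reads, were left out.

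Counts were fitted with edgeR 4.0.16 in R 4.3.3: filterByExpr (minimum count 10, minimum total 15), TMM, quasi-likelihood F-test, Benjamini-Hochberg adjustment over all genes, threshold 0.05. Each mutant was fitted with its own 4 WT libraries and no covariate; the difference of effects and the WT groups were contrasts over 16 libraries. Standard errors were derived from the log2 fold change and F. Alternatives used DESeq2 1.42.0 and limma 3.58.1 voom, RLE and upper-quartile factors, no filter, the replicate number, sex, 1 fit of 16 libraries, and each library left out. The WT comparison and the 16-library fit with a sex term were added after the data were seen. On simulated counts for the Prepl comparison (13611 genes), 70 of 100 genes changed 1.5-fold and 90 of 100 changed 2-fold were called, with 15 false calls. For the PWS-IC comparison (13653 genes) these were 68 and 94 of 100, with 14 false calls. For the difference of effects (14146 genes) these were 22 and 73 of 100, with 11 false calls. The changed genes were drawn only from genes with many reads and no sex difference was simulated. The rates therefore do not cover genes with few reads or the uneven sexes of the Prepl groups.

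The 10 genes, the wider and marker lists and the settings were chosen with earlier results of these data known. Of the wider lists, the text names called genes and, where a list had none in a comparison, the gene with the smallest p; of marker lists, called genes, those for the difference of effects standing in the closing section. Copies are transcripts matching over at least 250 bases at 90% identity or more. Promoter sequences are from RefSeq (GRCm38.p6); positions are from GENCODE M21 for GRCm38. Among the 10 genes, depth limits precision most for Gpx4, with 197 to 283 reads a group.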

Additional observations from a re-analysis of the deposited data

Results flagged for a closer look

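Of 152 groups of 4 libraries checked, over the 10 genes and the other named genes, 8 held a library whose gap to the nearest other passed Dixon's critical value for that group's range, a criterion that chance meets in about 5% of groups. Among the 10 genes this was met by Cbr1, where Prepl WT replicate 3 stood at 56.2 CPM above the rest of its group. Among other defence genes, Txnip stood at 155.1 CPM in Prepl knockout replicate 4 and Sod3 at 2.65 CPM in Prepl WT replicate 1. Among markers, Cnp stood at 32.2 CPM in Prepl knockout replicate 4 and at 25.5 CPM in PWS-IC deleted replicate 2. Hba-a1 stood at 235.9 CPM in Prepl knockout replicate 4 and Hbb-bt at 225.0 CPM in Prepl WT replicate 1. Ttr stood at 1607 CPM in PWS-IC deleted replicate 4.

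The PWS-IC effect differed from the Prepl effect, by the contrast over 16 libraries, for 6 named genes. The genes and lists were chosen with earlier results of these data known, so these values are a description. The log2 difference was -1.02 for Cbr1 and -0.62 for Glod4. For markers it was -0.78 for Col1a2, -0.84 for Col3a1, -0.83 for Igf2 and -1.63 for Hba-a1.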

How the results depend on the processing

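No fold change of a called gene named in the text changed sign under any setting. In the Prepl comparison, with 36 genes called of all tested, 156 were called with no filter, 6 with a sex term and 18 in 1 fit of 16 libraries. With that sex term the Prepl effect rests on the single WT male, since no knockout was female. Of the 10 genes, with 2 called, 1 was called with the replicate block, 0 with a sex term and 1 in 1 fit of 16 libraries. Of the wider genes, with 1 called, 0 were called with DESeq2, with a sex term and in both fits of 16 libraries. In the PWS-IC comparison, with 616 genes called, 945 were called with no filter, 989 with the replicate block, 1119 with a sex term, 999 in 1 fit of 16 libraries and 1233 in that fit with a sex term. Of the 10 genes, with 0 called, 1 was called with DESeq2, with the replicate block and in 1 fit of 16 libraries, 3 with a sex term and 2 in the 16-library fit with a sex term. For the difference of effects, with 112 genes called, 222 were called with no filter, 195 with DESeq2 and 235 with a sex term; of the wider genes, with 1 called, 4, 2 and 5 were called under these settings. The cause was not tested. Leaving out each library gave 12 to 103 genes called in the Prepl comparison, with 0 to 2 of the 10 genes and 1 wider gene, and 362 to 653 in the PWS-IC comparison, with 0 to 1 of the 10 and 3 to 6 wider genes. It gave 67 to 134 for the difference, with 0 to 1 wider genes, and 2772 to 3365 between the WT groups, with 3 of the 10. Libraries of the 2 groups with the same replicate number had correlations of deviations of -0.07 to 0.05 in the Prepl pair and -0.02 to 0.18 in the PWS-IC pair, so not every pair passed 0.1 and no label says what a number marks. In the PWS-IC pair 3 of 4 did, and there libraries of the same number also share sex. With the block, Lancl1 lost its call in the Prepl comparison and Prdx1 was called in the PWS-IC comparison. Among the 10 genes, depth limits Gpx4 and Prdx3 most.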
